A study of Mus musculus with 22 samples.

Results

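A set of 10 genes of fatty acid uptake and oxidation was followed in the ventricles of mouse embryos in which Lin9, Sav1 or both had been deleted. They were taken by symbol, as the rows named Cd36, Fabp3, Cpt1b, Cpt2, Acadm, Acadl, Acadvl, Hadha, Hadhb and Acaa2, and all 10 were present among the 48709 genes that both count tables hold. Counts were found for 9 of them. The carnitine palmitoyltransferase gene of muscle, Cpt1b, was listed at 0 in all 18 libraries.

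Ventricular tissue was isolated at E13.5 and its polyA RNA sequenced in 2 separate experiments with 3 libraries per group. The first experiment compared Lin9 knockout with Lin9 wild-type ventricles, both with wild-type Sav1, and the second crossed both genotypes to give 4 groups, namely Lin9 wild-type with Sav1 wild-type, Lin9 knockout with Sav1 wild-type, Lin9 wild-type with Sav1 knockout, and the double knockout. The floxed parts were exon 7 of Lin9 and exon 3 of Sav1, and deletion was driven by Nkx2.5-Cre, which is active in early cardiac precursors, so that ventricular cells of other origin keep both genes. All groups carried Nkx2.5-Cre. Libraries are called Lin9 wild-type here after the labels, but by the study's own description they carried a floxed and an intact copy of Lin9, so that with Cre these controls were heterozygous for Lin9. The study calls the experiments biological replicates and the libraries of a group a triplicate, without saying whether a triplicate came from separate embryos, so the p-values measure the spread within triplicates, which may be technical.

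LIN9 is a subunit of MuvB, a complex that activates cell cycle genes together with B-MYB and holds them down in the DREAM complex. SAV1 is a scaffold of the Hippo kinases, which restrain the coactivator YAP. The genes described here serve the use of fat as a fuel. Long-chain fatty acids enter the cell with the help of CD36, are carried in the cytosol by the heart-type binding protein FABP3, and pass into the mitochondrion as carnitine esters that CPT1 makes and CPT2 takes apart. Inside, repeated rounds of beta-oxidation shorten the chain: acyl-CoA dehydrogenases of different chain length preference (ACADVL, ACADL, ACADM) open each round, the trifunctional protein (HADHA and HADHB) carries out the later steps on long chains, and the thiolase ACAA2 releases acetyl-CoA. The fetal heart relies more on glucose and lactate, and fat becomes the main fuel after birth.

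Total counts were even within each experiment, 9485599 to 9615274 per library in the first and 2770741 to 2999877 in the second, since reads had been reduced to the number of the smallest library before counting. A count of 1 was worth about 0.105 CPM, the counts scaled to library size, in the first experiment and 0.342 CPM in the second. The 9 genes with counts held 402 to 4001 counts per library in the first experiment and 106 to 1370 in the second. Lin9 itself, counted over the whole gene, averaged 25.6 ± 4.19 CPM (SD, n = 3) in controls and 20.6 ± 1.21 CPM in knockouts of the first experiment (adjusted p = 0.13), and 26.8 ± 3.22 against 15.5 ± 2.38 CPM with wild-type Sav1 in the second (adjusted p = 0.00269). With Sav1 deleted it averaged 25.4 ± 6.11 against 22.7 ± 3.84 CPM (adjusted p = 0.586). Sav1 averaged 57.5 ± 3.88 against 40.7 ± 3.98 CPM with wild-type Lin9 (adjusted p = 0.317) and 49.7 ± 2.28 against 42.2 ± 1.74 CPM with Lin9 deleted (adjusted p = 0.465). Counts over a whole gene include exons outside the floxed part and cells without Cre, so they check the labels only weakly.

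Promoter sequences of 8 of the 10 genes, all but Cpt1b and Acaa2, were taken from the RefSeq tables of build GRCm38.p6. Each runs from 250 bases before to 50 bases after the start site. The 3 shown are those with a match to a motif: Acadm, with one of the deepest falls of the set, Acadvl, with a smaller one, and Cd36, which did not fall. Capitals mark every match, on either strand, to the short motifs searched.
Acadm promoter: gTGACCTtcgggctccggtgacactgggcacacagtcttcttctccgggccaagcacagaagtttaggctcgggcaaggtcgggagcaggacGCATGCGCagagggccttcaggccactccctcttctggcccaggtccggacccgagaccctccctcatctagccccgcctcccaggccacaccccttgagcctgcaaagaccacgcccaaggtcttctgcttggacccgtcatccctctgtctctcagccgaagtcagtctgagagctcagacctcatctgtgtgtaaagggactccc
Acadvl promoter: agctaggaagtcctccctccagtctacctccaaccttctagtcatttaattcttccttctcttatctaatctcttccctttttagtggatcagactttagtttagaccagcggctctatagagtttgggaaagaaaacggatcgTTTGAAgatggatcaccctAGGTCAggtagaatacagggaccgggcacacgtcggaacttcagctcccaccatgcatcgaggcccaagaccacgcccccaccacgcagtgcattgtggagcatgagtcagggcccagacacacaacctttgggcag
Cd36 promoter: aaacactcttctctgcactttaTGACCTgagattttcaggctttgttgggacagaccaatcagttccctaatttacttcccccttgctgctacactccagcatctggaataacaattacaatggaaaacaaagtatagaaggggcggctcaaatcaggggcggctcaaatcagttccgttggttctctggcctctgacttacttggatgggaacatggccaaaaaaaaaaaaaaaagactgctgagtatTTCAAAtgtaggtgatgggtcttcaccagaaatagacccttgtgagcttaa
The windows lie at chr3:153944594-153944893, minus strand, at chr11:70015379-70015678, minus strand and at chr5:17835847-17836146, minus strand. Capitals in the Acadm promoter are a nuclear receptor half-site (AGGTCA, here read on the opposite strand) near the start of the window and an NRF1 motif (GCATGCGC) that begins 158 bases before the start site. In Acadvl they are TTTGAA, a form of the cell cycle genes homology region that MuvB binds, and a half-site, and they begin 106 and 87 bases before the start site. The Cd36 window holds the same 2 motifs, both on the opposite strand, and its TTTGAA reaches over the RefSeq start site used here. Cd36 has several annotated starts, some of them farther upstream, and the window covers 1 of them.

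Among all 32851 RefSeq promoters of the same length, 16.3% held the half-site, 17.9% held TTTGAA and 2.71% held the NRF1 motif. The half-site was found in 3 of the 8 promoters, TTTGAA in 2 and the NRF1 motif in 1, and no other motif searched was found in any of the 8. Those others were TNAAGGTCA, the element of the estrogen-related receptors, which 1.28% of all promoters held, the direct repeat DR1 of PPAR and RXR (0.0396%), TTCGAA (1.56%), the E2F forms TTTGGCGC (0.514%) and TTTCCCGC (1.07%) and the TEAD motif CATTCC (14.7%). The half-site is part of TNAAGGTCA and of DR1. A match is a description of these letters and no match says only that they are not in this window. Acadl, Cpt2, Fabp3, Hadha and Hadhb had no match. Promoters of Cpt1b and Acaa2 are not shown and are not part of the counts over the 8.

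Hadha and Hadhb, which encode the alpha and beta subunits of the same enzyme, lie head to head on chromosome 5. RefSeq places their start sites 273 bases apart, and the windows of the 2 promoters share 228 bases. The stretch from one start site to the other is shown on the plus strand of GRCm38.p6, at chr5:30154980-30155253, with the first base of each transcript in capitals. The GENCODE annotation used for the gene coordinates in this text places the starts closer together.
Hadha to Hadhb: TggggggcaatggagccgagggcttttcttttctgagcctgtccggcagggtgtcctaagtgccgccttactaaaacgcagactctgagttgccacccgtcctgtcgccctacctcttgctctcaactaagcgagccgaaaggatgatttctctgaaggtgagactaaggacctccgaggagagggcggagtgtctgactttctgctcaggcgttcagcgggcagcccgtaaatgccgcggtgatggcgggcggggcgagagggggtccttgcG

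In control ventricles the 9 genes were spread over about an order of magnitude when levels were set per length. Acadl was highest, at 215 ± 5.98 CPM per kb of its principal transcript in the first experiment and 232 ± 6.52 in the second (SD, n = 3). Acaa2, at 156 ± 11.5 and 135 ± 11.9, and Fabp3, at 155 ± 18.9 and 149 ± 6.4, came next and differed from each other by less than the sum of their SDs. Acadm followed with 115 ± 8.76 and 114 ± 2.35, and then Hadha with 91.3 ± 12.7 and 104 ± 5.53. Lowest in the order were Hadhb (68.7 ± 8.61 and 56.6 ± 5.08), Cd36 (35.4 ± 6.65 and 37.5 ± 1.71), Acadvl (30.1 ± 1.8 and 30.2 ± 2.99) and Cpt2 (23.2 ± 0.958 and 22.6 ± 1.32 CPM per kb). Cd36 and Acadvl differed by less than the sum of their SDs in the first experiment. The order depends on the length used: per kb of all annotated exons, retained introns included, Hadhb was lowest, at 21.3 and 17.6 CPM per kb. For Acadvl 46.5% of the exonic length lies under Dvl2 on the other strand, for Fabp3 19.6% under its neighbours Zcchc17 and Gm10570, and for Hadha 0.9% under Garem2, and how reads in such overlaps were counted is not stated, so the levels of these genes may miss reads or hold reads of a neighbour.

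**Figure D1:**
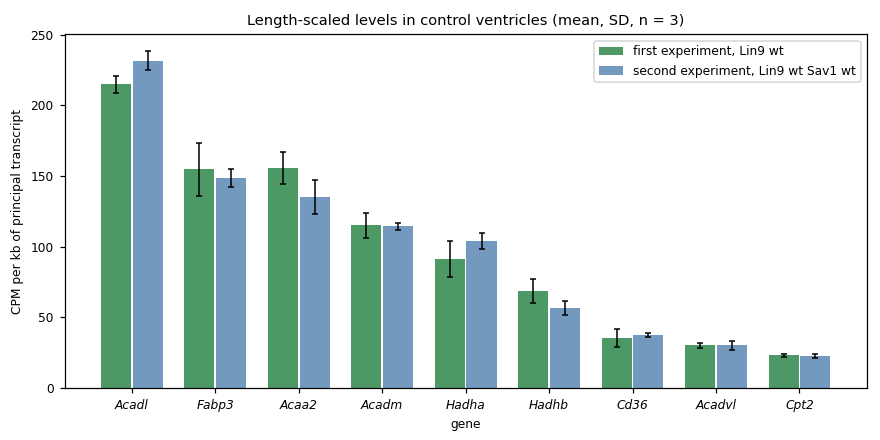
Mean level of 9 fatty acid genes (x axis) in control ventricles of both experiments, in CPM per kb of the principal transcript (y axis, from 0). Bars are means of 3 libraries with SD, and Acadl stands highest at 215 and 232 CPM per kb while Cpt2 stands lowest at 23.2 and 22.6.

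Most of these genes had lower transcript levels without Lin9, libraries being scaled to all genes. The deepest falls were those of the thiolase gene Acaa2, to 47.9%, 51.8% and 49.8% of control in the 3 Lin9 comparisons, and of the dehydrogenase gene Acadm, to 54.1%, 50.8% and 57.4%. Cd36, the entry point of the pathway, stood at 99.3%, 104% and 131% of control. In the quasi-likelihood test of edgeR, p-values adjusted by Benjamini-Hochberg over all genes tested, 7 of the 9 genes with counts were lower in Lin9 knockouts of the first experiment, against 9.78% of the 19752 genes tested, and none was higher, against 11.1%. In the second experiment 8 of 9 were lower with wild-type Sav1, against 10.5% of 17675 genes, and none was higher, against 12.7%. With Sav1 deleted 7 of 9 were lower, against 11.6%, and 1, Cd36, was higher, against 11.8%. Without knockout replicate 1 of the first experiment, the count there fell from 7 to 4. Over all genes the lower ones then fell from 1932 of 19752 to 1397 of 19652. The 6 genes that were lower in all 3 comparisons were Fabp3, Acadm, Acadl, Acadvl, Hadhb and Acaa2. The share of all genes lower in all 3 at once was not counted. The median log2 fold change of the 9 genes was -0.46, -0.55 and -0.48 in these 3 comparisons, whereas the median over all genes tested was 0.02, 0.01 and 0.03. Every Lin9 knockout library lay below every control library for 7, 8 and 8 of the 9 genes, an arrangement that 18.1%, 16.8% and 19.2% of all genes tested showed. The share of counts from mitochondrial RNA moved with Lin9 too, from 4.2 to 5.42% in controls to 3.42 to 4.02% in the first experiment and from 3.88 to 4.86% to 2.63 to 3.54% in the second, while with Sav1 deleted the ranges of 4.37 to 4.99% and 3.58 to 4.76% overlapped, and its part in the result was not tested. These directions hold relative to all genes: scaled to cardiomyocyte markers, 0 of the 9 were lower past the threshold in any of the 3 comparisons. Under that scaling 14797 of 19752, 12864 of 17675 and 13226 of 17675 genes passed, most of them higher. Few genes of any kind were thus lower there.

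**Figure D2:**
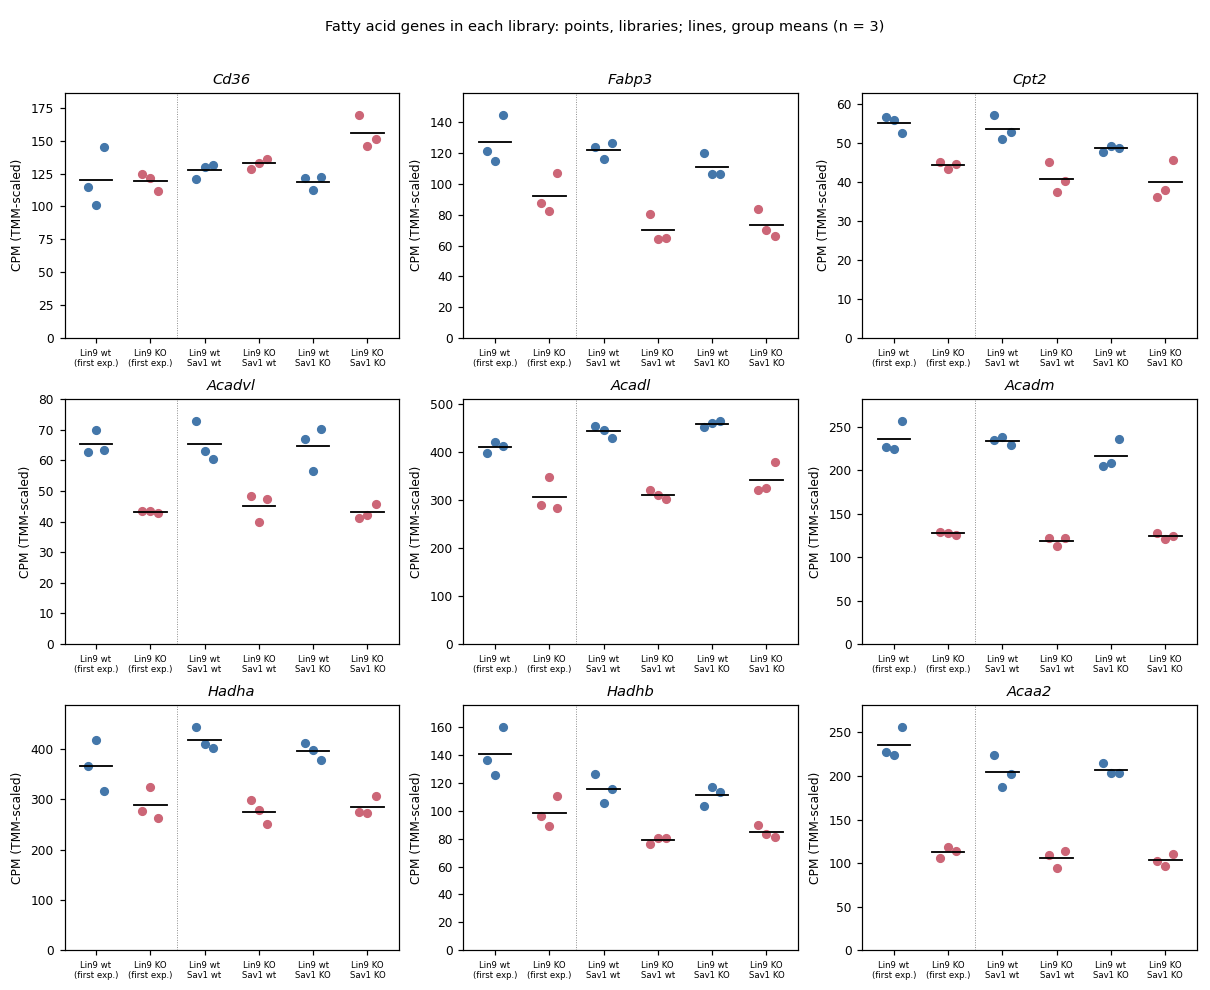
Level of each gene with counts in every library, in CPM scaled by TMM to all genes (y axes, from 0), by group (x axes, control in blue and Lin9 knockout in red, dotted line between the experiments). Points are libraries and lines are means of 3: for Acaa2 and Acadm the groups stand apart in all 3 pairs, and for Cd36 they overlap in the first 2.

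Cd36 (ENSMUSG00000002944, chr5:17781690-17888801, minus strand), the fatty acid translocase of the cell surface, was the 1 gene of the 9 with counts that was not lower past the threshold in any comparison. Controls of the first experiment had 115, 101 and 145 CPM and Lin9 knockouts 125, 122 and 112 CPM, and the values of the second were 121, 130.1 and 132 against 129, 133 and 136 CPM. These groups overlapped, and the log2 fold changes of -0.01 (95% interval -0.28 to 0.26, adjusted p = 0.972) and 0.06 (-0.14 to 0.26, adjusted p = 0.735) did not pass. On the Sav1 knockout background Cd36 stood at 121, 113 and 122 CPM with Lin9 and at 169.6, 146 and 152 CPM in double knockouts. There all 3 double knockout libraries were higher, by 0.39 ± 0.10 (adjusted p = 0.00361), with adjusted p values of 0.00926 to 0.0364 when any 1 library was left out. The interaction, which is the test of whether the Lin9 effect differed between Sav1 backgrounds, gave 0.33 ± 0.14 for Cd36 with an unadjusted p of 0.0221 by edgeR, and it did not pass (adjusted p = 0.711). Per kb of the principal transcript, Cd36 and Hadhb lay side by side in Lin9 knockouts of the second experiment, at 39.1 and 38.7 CPM. In double knockouts they stood at 45.9 and 41.4, which is less apart than the sum of their SDs. Per kb of all annotated exons Cd36 was above Hadhb in controls already, at 33.5 against 21.3 and 35.5 against 17.6. Cd36 is also known from endothelial cells, macrophages and red cell precursors, whose marker sums are set beside it further on.

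Upstream of the mitochondrion, the binding protein gene Fabp3 (ENSMUSG00000028773, chr4:130308595-130315463, plus strand) fell in all 3 comparisons. It had 122, 115 and 145 CPM in controls and 87.4, 82.5 and 107 CPM in Lin9 knockouts of the first experiment. The values of the second were 124, 116 and 126 against 80.8, 64.2 and 65.2 CPM with wild-type Sav1 and 120.1, 107 and 107 against 83.5, 70 and 66.1 CPM with Sav1 deleted. The groups were apart, narrowly so in the first experiment, and the log2 fold changes were -0.46 ± 0.12 (adjusted p = 0.0135), -0.80 ± 0.11 (5.50e-06) and -0.60 ± 0.11 (0.000255). Without control replicate 3 or knockout replicate 1 the first of these did not pass (adjusted p = 0.0911 and 0.0676).

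Cpt1b (ENSMUSG00000078937, chr15:89416405-89425863, minus strand) encodes the muscle form of CPT1, the rate-setting step of mitochondrial import, and its count was 0 in every library. The gene lies whole within an annotated read-through gene on the same strand, Gm44502 (ENSMUSG00000116461, chr15:89416405-89429696), which has no row in either table. Of 1238 protein-coding genes nested whole in a second gene of the annotation, 93.4% had no count in any library, against 14.2% of the remaining 20457. Whether the 0 of Cpt1b comes from the treatment of overlapping genes was not tested, and no level or change is given for it. Its relative Cpt1a, the liver form, had 67 ± 3.91 and 75.9 ± 6.83 CPM in controls and did not pass in any of the 3 Lin9 comparisons (0.01 ± 0.11, 0.10 ± 0.13 and 0.30 ± 0.13, adjusted p = 0.966, 0.651 and 0.0909). Cpt1a was singled out after its values were seen.

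Cpt2 (ENSMUSG00000028607, chr4:107903981-107923610, minus strand), the enzyme that frees acyl-CoA inside the mitochondrion, had the smallest changes of the 8 genes other than Cd36. Controls of the first experiment read 56.7, 56 and 52.5 CPM and knockouts 45.2, 43.2 and 44.6 CPM. In the second experiment the gene stood at 57.1, 51 and 52.9 against 45, 37.4 and 40.2 CPM with wild-type Sav1, and at 47.8, 49.3 and 48.8 against 36.1, 38 and 45.5 CPM with Sav1 deleted. The groups did not overlap in any pair. The log2 fold change passed at -0.31 ± 0.10 (adjusted p = 0.0324) and -0.39 ± 0.13 (0.0222) but not at -0.29 ± 0.13 (0.107). Both calls depended on the test and the libraries: DESeq2 gave adjusted p = 0.0685 and 0.063, and leaving out a library took the adjusted p up to 0.121 and 0.0737.

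Acadm (ENSMUSG00000062908, chr3:153922357-153944632, minus strand) encodes the medium-chain acyl-CoA dehydrogenase. It stood at 226, 224 and 256 CPM in controls of the first experiment and at 129, 127 and 126 CPM in Lin9 knockouts. The second experiment gave 235, 238 and 229 CPM in controls and 122, 113 and 122 CPM after loss of Lin9. With Sav1 deleted the libraries read 205, 208 and 236 CPM with Lin9 and 128, 120.4 and 125 CPM in double knockouts. The 9 libraries without Lin9 covered a narrow band, from 113 to 129 CPM, well apart from the controls. The log2 fold change was -0.89 ± 0.10 (adjusted p = 2.79e-05), -0.98 ± 0.09 (adjusted p = 1.02e-08) and -0.80 ± 0.09 (adjusted p = 3.22e-07).

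The other acyl-CoA dehydrogenases fell less. Acadl (ENSMUSG00000026003, chr1:66830839-66863277, minus strand), the long-chain enzyme, had 399, 422 and 414 CPM in controls and 289, 347 and 284 CPM in knockouts of the first experiment, and 455, 446 and 430.3 against 321, 311 and 302 CPM in the second. With Sav1 deleted it had 452, 461 and 465 CPM against 320.2, 326 and 379 CPM. The groups did not overlap in any pair, and the log2 fold change was -0.42 ± 0.11 (adjusted p = 0.0152), -0.51 ± 0.09 (0.00014) and -0.43 ± 0.09 (0.00107). The call in the first experiment was lost without any single control or without knockout replicate 1, with adjusted p values up to 0.081. Acadvl (ENSMUSG00000018574, chr11:70010183-70015411, minus strand), the very-long-chain enzyme of the inner mitochondrial membrane, had 62.6, 69.8 and 63.5 CPM against 43.6, 43.3 and 42.8 CPM in the first experiment. The second gave 72.8, 63 and 60.5 against 48.3, 40 and 47.3 CPM with wild-type Sav1 and 66.9, 56.4 and 70.2 against 41.2, 42.2 and 45.9 CPM with Sav1 deleted. Knockout libraries were again below all of their controls, with log2 fold changes of -0.59 ± 0.10 (adjusted p = 0.000512), -0.54 ± 0.12 (0.002) and -0.58 ± 0.12 (0.000992).

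The trifunctional protein genes were lower without Lin9 in the second experiment, and in the first only Hadhb passed. Hadha (ENSMUSG00000025745, chr5:30118304-30155162, minus strand), whose product carries the hydratase and dehydrogenase activities, had 367, 418 and 316 CPM in controls and 277, 325 and 263 CPM in knockouts of the first experiment, so 1 knockout library lay above the lowest control. Its log2 fold change there, -0.35 ± 0.13 with an interval of -0.62 to -0.08, did not pass (adjusted p = 0.0656), but it passed with a replicate block (0.0054), in DESeq2 (0.0469), with no filter (0.03) and with total-count scaling (0.0482). In the second experiment Hadha stood at 444, 409.8 and 402 CPM against 298, 278 and 251 CPM, and at 412, 398 and 379 against 275, 272 and 308 CPM with Sav1 deleted. There the groups were apart and the gene passed, with -0.60 ± 0.10 (adjusted p = 2.81e-05) and -0.48 ± 0.10 (0.000488). Hadhb (ENSMUSG00000059447, chr5:30155248-30184593, plus strand), the thiolase subunit, read 136, 126 and 160 against 96.3, 89.2 and 111 CPM in the first experiment. In the second it read 126, 106 and 116 against 76.2, 80.6 and 80.8 CPM, and 104, 117 and 114 against 89.6, 83.8 and 81.1 CPM with Sav1 deleted. All knockouts lay below their controls, and the log2 fold changes were -0.51 ± 0.12 (adjusted p = 0.00595), -0.55 ± 0.10 (0.000236) and -0.40 ± 0.10 (0.00562).

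The thiolase gene Acaa2 (ENSMUSG00000036880, chr18:74779197-74806208, plus strand), which acts in the last step of each round of beta-oxidation, showed the largest fall of the 9 genes in the first experiment and with Sav1 deleted. Controls of the first experiment had 228, 224 and 256 CPM and Lin9 knockouts 106, 119 and 114 CPM. In the second experiment the values were 224, 188 and 202 CPM in controls and 109, 94.7 and 114 CPM in Lin9 knockouts with wild-type Sav1. On the Sav1 knockout background they were 215, 204 and 204 CPM with Lin9 and 103, 97.1 and 109.9 CPM without it. No knockout library came near a control library. The log2 fold changes were -1.06 ± 0.10 (SE, adjusted p = 7.97e-06), -0.95 ± 0.10 (adjusted p = 6.72e-08) and -1.005 ± 0.10 (adjusted p = 2.60e-08).

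**Figure D3:**
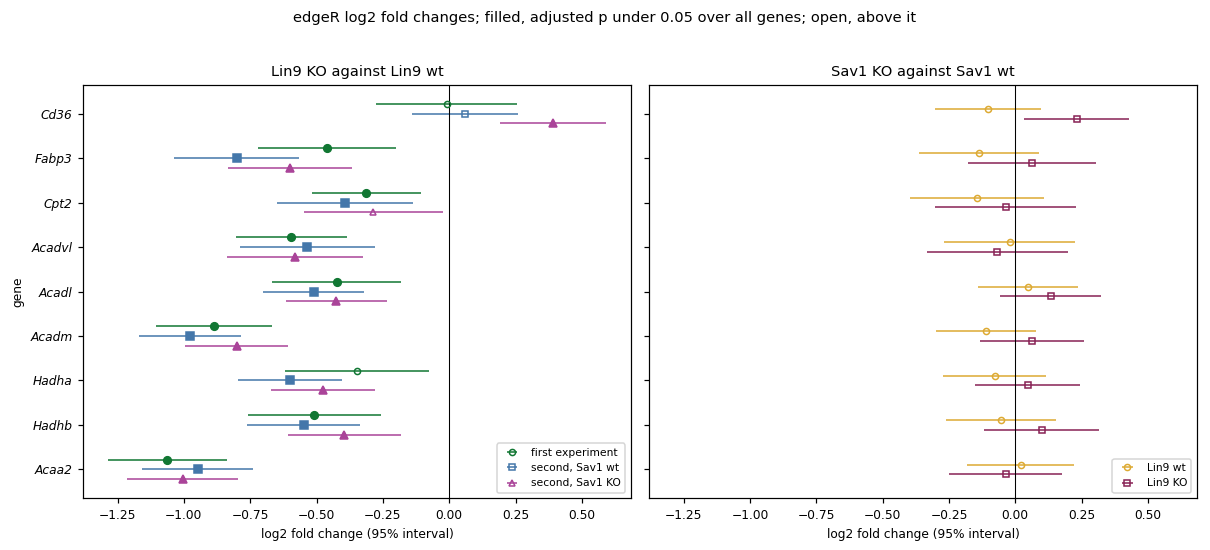
Log2 fold change (x axis) with its 95% interval for each gene with counts (y axis), for Lin9 knockout against wild-type in 3 comparisons on the left and for Sav1 knockout against wild-type in 2 on the right, libraries scaled to all genes. Filled symbols passed an adjusted p of 0.05 over all genes and open symbols did not: Acaa2 and Acadm lie farthest to the left, and no symbol in the right panel is filled.

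Deletion of Sav1 alone or on top of Lin9 changed none of the 9 genes past the threshold. With wild-type Lin9, 0 of the 9 genes passed, against 0.017% of 17675 genes tested, and the median log2 fold change was -0.08. The values ran from -0.14 for Cpt2, with an interval of -0.40 to 0.11, to 0.05 for Acadl, with an interval of -0.14 to 0.24. For Cpt2 all 3 Sav1 knockout libraries lay below all 3 controls, and for the other 8 genes the groups overlapped. Among all 17675 genes, 1086 had every Sav1 knockout library below every control and 1055 had every one above. With Lin9 deleted 0 of 9 passed as well, against 0.0113% of genes, with a median of 0.06. Cd36 was the gene with the largest difference there, 0.23 (interval 0.03 to 0.43, unadjusted p = 0.024 and adjusted p = 0.341 by edgeR), and all 3 double knockout libraries lay above the 3 Lin9 knockouts. Hadhb libraries were also apart, by 0.10 (-0.12 to 0.32). Of all 17675 genes, 1273 had every double knockout library above every Lin9 knockout library and 1391 had every one below. The interaction passed for 0 of 9 genes, and for 0% of all 17675. At an unadjusted p under 0.05, edgeR's test gave 0 of the 9 genes with wild-type Lin9, 1 with Lin9 deleted and 1 for the interaction, against 694, 2091 and 1153 of all genes. DESeq2 passed none of the 9 in any of these 3 tests. The comparisons share groups, since the Lin9 knockouts with wild-type Sav1 serve in both the Lin9 and the Sav1 comparison.

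Across libraries 8 of the 9 genes moved together. Pearson's r of log2 CPM between a gene and the mean of the other 8 was 0.64 to 1.00 over the 6 libraries of the first experiment and 0.88 to 0.98 over the 12 of the second. Cd36 stood apart with r = 0.03 and r = -0.69. These are descriptions, and they hold both the split by Lin9 genotype and what libraries share by depth and make-up. The genes outside the lists whose log2 CPM followed the mean of the 9 most closely were Cyc1, a subunit of respiratory complex III (r = 1.00 and 0.99), the histone chaperone gene Nap1l4 (0.99 and 0.99), the F-box gene Fbxl22 (0.99 and 0.98), Gm5514 (0.99 and 0.98) and Atp5g3, a subunit of ATP synthase (0.99 and 0.98).

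Cardiomyocyte marker RNA was lower without Lin9 as well, and in bulk samples fewer cells of a type and less RNA per cell cannot be told apart. The summed level of the 13 listed cardiomyocyte markers was 23350 to 23900 CPM in controls and 10560 to 14610 CPM in Lin9 knockouts of the first experiment. It was 25850 to 27000 against 12870 to 14360 CPM in the second experiment with wild-type Sav1, and 27780 to 29010 against 12820 to 15920 CPM with Sav1 deleted. Of the 11 markers with counts 8 were lower past the threshold in each comparison and none was higher, with a median log2 fold change of -0.92, -0.92 and -0.999. Actc1 and Tnnc1 were at 0 in every library. The 4 ventricle markers had counts in all libraries, with sums of 9658 to 10090 against 3681 to 4764 CPM in the first experiment. All 4 were lower in each comparison, but Myl2 and Myh7 among them are also in the cardiomyocyte list. When libraries were scaled to the geometric mean of the 11 cardiomyocyte markers in place of all genes, the median of all genes in the Lin9 comparisons moved to 0.96, 0.95 and 0.94, and 0 of the 9 fatty acid genes were then lower past the threshold while 6, 6 and 7 were higher. Over all genes 14716 of 19752, 12792 of 17675 and 13157 of 17675 were higher under that scaling, so the counts of the 9 are near the share of genes in general. Relative to that shift the median of the 9 genes was -0.44, -0.55 and -0.49. Such a scaling shifts all genes of a comparison by about the same amount, so it leaves the distance to the median gene as it was. Of the 9 genes, Acaa2 had a lower log2 fold change than the median cardiomyocyte marker in all 3 comparisons and Acadm in the second experiment with wild-type Sav1, and the remaining genes lay above it. The difference from the markers was not tested.

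**Figure D4:**
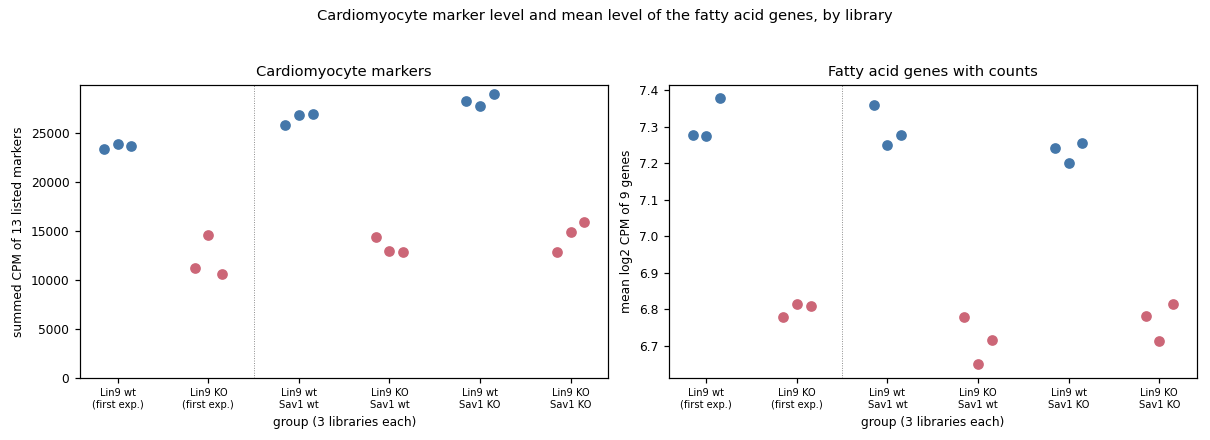
Summed CPM of the listed cardiomyocyte markers (left y axis, from 0) and mean log2 CPM of the 9 fatty acid genes with counts (right y axis, which does not start at 0) in each of the 3 libraries of a group, libraries scaled to all genes. Controls are blue and Lin9 knockouts red, and in both panels every knockout library lies below every control library of its experiment.

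Macrophage, red cell, epicardial and fibroblast lists had most of their markers higher in Lin9 knockouts. In the endothelial, atrial and smooth muscle lists a smaller part of the markers was higher past the threshold. Summed macrophage markers were 69.5 to 73.2 against 122 to 153 CPM in the first experiment, 85.4 to 92.6 against 141 to 169 CPM in the second and 72.3 to 93.1 against 157 to 200.3 CPM with Sav1 deleted, with 7, 5 and 7 of 8 markers higher past the threshold. Red cell markers were 5074 to 6958 against 24260 to 63480 CPM, 2643 to 3319 against 14380 to 27310 CPM and 2001 to 2650 against 7126 to 21370 CPM, with all 7 markers that had counts higher in each and Alas2 at 0. Endothelial markers were 882 to 1153 against 1067 to 1373 CPM, 978 to 1003 against 1032 to 1209 CPM and 869 to 931 against 965 to 1158 CPM, with 3, 3 and 4 of 8 higher and 0, 1 and 1 lower. The Cd36 groups overlapped in the first 2 of these pairs and stood apart in the third, the endothelial sums overlapped in the first and stood apart in the other 2, and the macrophage and red cell sums were apart in all 3. Epicardial and fibroblast lists had 5 or 6 of 6 markers higher in each comparison. Atrial markers were higher in 1, 2 and 2 of 5, and none was lower past the threshold. Their sums were 2986 to 3846 against 3995 to 4964 CPM in the first experiment. In the second they were 2904 to 3361 against 3797 to 4519 CPM, and 2724 to 3163 against 3564 to 4049 CPM with Sav1 deleted. These sums were apart in all 3 pairs. Smooth muscle markers were higher in 1 of 4 in each comparison and lower in 0, 1 and 1. The part of these cell types in the levels of the fatty acid genes was not tested. Adipocyte markers, the sign of another fat-handling tissue, summed to at most 0.656 CPM in any library, and liver markers to at most 9.05 CPM.

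Other genes of fatty acid handling were counted in the same way, relative to all genes. The counts per list are to be read against the shares of all genes tested, 9.78%, 10.5% and 11.6% lower and 11.1%, 12.7% and 11.8% higher in the 3 Lin9 comparisons. For the named genes, values of the second experiment are those with wild-type Sav1, and all but Slc27a6, Slc25a20 and Esrrg also passed in the same direction with Sav1 deleted. Of the other genes of mitochondrial beta-oxidation, 11 of 14 had enough counts, and 7, 6 and 8 of them were lower past the threshold in the 3 Lin9 comparisons and none higher. Their median log2 fold change was -0.43, -0.39 and -0.44. Eci1, the isomerase that lets unsaturated chains enter the cycle, changed by -1.29 ± 0.13 in the first experiment and -1.19 ± 0.12 in the second (adjusted p = 1.41e-05 and 1.03e-08). Etfdh, which passes the electrons of the dehydrogenases to ubiquinone, changed by -0.41 ± 0.10 in the first experiment and -0.66 ± 0.10 in the second (adjusted p = 0.00657 and 8.42e-06).

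In the list of uptake and activation, with 14 genes tested, 4, 6 and 5 were lower and 1, 3 and 2 higher, with a median of -0.24, -0.27 and -0.19. Acsl1, a long-chain acyl-CoA synthetase, changed by -0.67 ± 0.13 in the first experiment and -0.66 ± 0.15 in the second (adjusted p = 0.00154 and 0.00167), and its relative Acsl5 by -0.39 ± 0.10 in the first experiment and -0.46 ± 0.12 in the second (adjusted p = 0.0109 and 0.00626). Slc27a6, a fatty acid transport protein of the heart with only 1.84 and 1.82 CPM in controls, was higher, by 1.17 ± 0.26 in the first experiment and 1.41 ± 0.42 in the second (adjusted p = 0.00484 and 0.014). With Sav1 deleted Slc27a6 did not pass (0.74 ± 0.43, adjusted p = 0.228). Among 5 other genes of the carnitine shuttle, 2, 2 and 1 were lower and 1 was higher in each comparison. Crat, the carnitine acetyltransferase, changed by -1.10 ± 0.10 in the first experiment and -1.05 ± 0.12 in the second (adjusted p = 4.96e-06 and 8.28e-08), and Slc25a20, the carnitine carrier of the inner membrane, by -0.44 ± 0.10 in the first experiment and -0.49 ± 0.13 in the second (adjusted p = 0.00496 and 0.00517). With Sav1 deleted the groups of Slc25a20 were apart but it did not pass (-0.32 ± 0.13, adjusted p = 0.0693). Cpt1c, the form of CPT1 known from neurons, was higher by 1.05 ± 0.13 in the first experiment and 1.56 ± 0.15 in the second (adjusted p = 5.36e-05 and 1.24e-08).

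Of 9 peroxisomal genes tested 1, 1 and 2 were lower and 1, 2 and 1 higher, which is near the share of all genes. Hsd17b4, the multifunctional enzyme of peroxisomal beta-oxidation, changed by -0.48 ± 0.12 in the first experiment and -0.52 ± 0.10 in the second (adjusted p = 0.00808 and 0.000241), and the transporter gene Abcd2, at 1.53 and 1.70 CPM in controls, by 1.503 ± 0.25 in the first experiment and 1.29 ± 0.45 in the second (adjusted p = 0.000527 and 0.0357). Among storage and lipolysis genes, of which 9, 8 and 8 were tested, 1, 1 and 2 were lower and 2 were higher in each. The lipid droplet coat genes Plin2 and Plin3 were the higher ones, Plin2 by 0.68 ± 0.14 in the first experiment and 0.66 ± 0.11 in the second (adjusted p = 0.00423 and 3.97e-05) and Plin3 by 0.42 ± 0.10 in the first experiment and 0.36 ± 0.10 in the second (adjusted p = 0.00684 and 0.0112). Dgat1, which makes triglyceride, changed by -0.49 ± 0.10 in the first experiment and -0.37 ± 0.13 in the second (adjusted p = 0.00329 and 0.0375). Of 7 genes of fatty acid synthesis 1, 1 and 4 were lower and none higher, and Elovl6, which lengthens chains, changed by -0.68 ± 0.20 in the first experiment and -0.85 ± 0.14 in the second (adjusted p = 0.0418 and 3.78e-05).

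Of 15 genes that regulate fatty acid use 9, 4 and 4 were lower and 2, 1 and 2 higher. Esrrg, the estrogen-related receptor gamma, changed by -0.84 ± 0.11 in the first experiment and -0.77 ± 0.21 in the second (adjusted p = 7.67e-05 and 0.0222), and Acacb, which makes the malonyl-CoA that inhibits CPT1, by -1.38 ± 0.11 in the first experiment and -0.70 ± 0.14 in the second (adjusted p = 1.11e-06 and 0.00082). Esrrg did not pass with Sav1 deleted (-0.14 ± 0.21, adjusted p = 0.691), and its groups overlapped in both comparisons of the second experiment. Ppard, a nuclear receptor that senses fatty acids, was higher, by 0.49 ± 0.12 in the first experiment and 0.78 ± 0.16 in the second (adjusted p = 0.01 and 0.000591). Regulators that did not pass in the second experiment with wild-type Sav1 included Ppara (-0.78 ± 0.35, adjusted p = 0.111 by edgeR) and Ppargc1b (-0.21 ± 0.145, adjusted p = 0.34). These 2 are given for that comparison only. A further pair, known to drive these genes in the adult heart, was chosen after the values were seen and is given for all 3. The part of any regulator in the levels of the fatty acid genes was not tested. Ppargc1a, the coactivator PGC-1 alpha, was lower in all 3 comparisons (-0.78 ± 0.12, -0.65 ± 0.15 and -0.68 ± 0.15, adjusted p = 0.000312, 0.00315 and 0.00229), and so was Esrra (-0.63 ± 0.10, -0.48 ± 0.11 and -0.61 ± 0.11, adjusted p = 0.000354, 0.00222 and 0.000171).

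**Figure D5:**
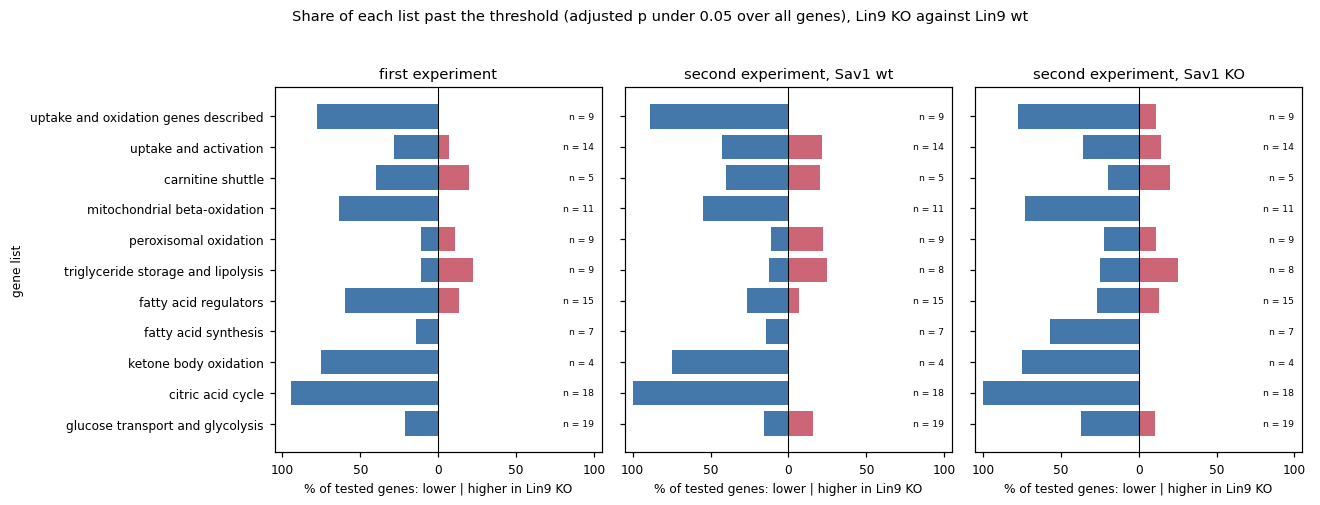
Share of the tested genes of each list (y axis, number tested at the right) that were lower (blue, to the left) or higher (red, to the right) in Lin9 knockouts past an adjusted p of 0.05 over all genes (x axes, percent), libraries scaled to all genes, in the 3 Lin9 comparisons. The genes described stand at 7, 8 and 7 of 9 lower, and the citric acid cycle at 17, 18 and 18 of 18.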

How the data were processed

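Reads of 18 polyA libraries from E13.5 ventricles (6 groups of 3) had been aligned by the authors with TopHat2 2.1.0 and Bowtie2 to the mouse genome (mm10), reduced to the smallest number of mappable reads, and counted per gene with summarizeOverlaps. The deposited values used here are these whole-number counts, 1 table per experiment, and the overlap mode and strand setting are not given in the sources used here. Reduction to equal size fixes depth, and dropping of reads in overlapping genes may lower or remove some genes. Tables of the authors' own fold changes and p-values were not used, and 4 ChIP-seq samples were not analysed here. A few repeated identifiers (4) were kept once.

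Each experiment was fitted apart with edgeR 4.0.16 (R 4.3.3) by its quasi-likelihood test, with TMM scaling, genes of mean count above 1 and adjusted p under 0.05 (Benjamini-Hochberg over all genes tested). The second experiment was 1 fit of 12 libraries with Lin9, Sav1 and interaction contrasts. CPM used TMM-scaled library sizes, and log2 CPM a prior count of 2. Levels between genes were set per kb of the longest principal transcript of GENCODE M21 (GRCm38), a length chosen after seeing that the length of all exons includes retained introns. Depth was 9485599 to 9615274 counts per library in the first and 2770741 to 2999877 in the second experiment. Intervals cover 95% and come from the fit.

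The genes and lists were chosen with earlier results of these data known. Named from each list were the genes with the 2 largest increases and 2 largest decreases in the second experiment among those that passed in the same direction in both experiments with wild-type Sav1. The 5 genes most like the set had at least 10 CPM and the highest of the lower of 2 correlations. Alternatives were other scalings, filters, DESeq2 1.42.0, a replicate block, a fit of only the libraries compared and leaving out each library. The scripts were tested on simulated data.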

Additional observations from a re-analysis of the deposited data

How the results depend on the processing

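The sign of most of the 9 log2 fold changes depended on the reference used for scaling. Under TMM, RLE, upper-quartile and total-count scaling 7 or 8 of the 9 genes were lower past the threshold in every Lin9 comparison. Scaled to the 11 cardiomyocyte markers with counts in every library, 14797, 12864 and 13226 genes passed in the 3 Lin9 comparisons, and the log2 fold changes became positive for these genes: 0.52 for Acadl, 0.072 for Acadm, 0.36 for Acadvl, 0.94 for Cd36, 0.65 for Cpt2, 0.52 for Fabp3, 0.60 for Hadha and 0.47 for Hadhb in the first experiment, 0.44 for Acadl, 0.41 for Acadvl, 0.55 for Cpt2, 0.14 for Fabp3, 0.35 for Hadha and 0.40 for Hadhb in the second with wild-type Sav1, and 0.50 for Acadl, 0.13 for Acadm, 0.35 for Acadvl, 0.64 for Cpt2, 0.33 for Fabp3, 0.45 for Hadha and 0.54 for Hadhb with Sav1 deleted. Acaa2 kept a negative sign in all 3 and Acadm in the second, without passing. For Sav1 the same scaling gave -0.0768 for Acaa2 and -0.0469 for Acadl with Lin9, and -0.0499 for Acadm, -0.0437 for Fabp3, -0.0713 for Hadha and -0.0156 for Hadhb without it. Cd36 in the first experiment changed sign under upper-quartile scaling (0.0056) and with a replicate block (0.0036). The change of reference set moves every gene by construction, and its cause in the tissue was not tested.

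Leaving out 1 library gave 2722 to 4223 genes in the first experiment (2722 without control replicate 3) and 4 to 7 of the 9 genes, with 4 without knockout replicate 1, where Acadl, Cpt2 and Fabp3 were lost. It gave -0.12 to 0.15 for Cd36 there. In the second experiment with wild-type Sav1 it gave 3035 to 4116 genes and 7 to 8 of the 9, all lower. With Sav1 deleted it gave 2975 to 3841 genes and 8 to 9 of the 9. Of these 7 to 8 were lower and 1, Cd36, was higher. In the Sav1 comparisons with wild-type Lin9 it gave 0 to 2 genes in all, -0.055 to 0.092 for Acaa2, -0.086 to 0.066 for Acadvl and -0.13 to 0.015 for Hadhb. With Lin9 deleted it gave 0 to 377 genes (377 without Lin9 knockout replicate 3), -0.099 to 0.014 for Acaa2, -0.14 to 0.045 for Cpt2, -0.052 to 0.19 for Fabp3 and -0.024 to 0.11 for Hadha. For the interaction it gave 0 to 64 genes, -0.12 to 0.036 for Acaa2 and -0.12 to 0.022 for Acadvl.

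Counts of genes that Sav1 changed were small and unsteady. With wild-type Lin9 3 passed, 22 with no filter and 31 in a fit of only the libraries compared. With Lin9 deleted 2 passed, against 4 with upper-quartile scaling, 290 scaled to cardiomyocyte markers, 309 with no filter, 77 in DESeq2, 84 with a replicate block, and 0 with filterByExpr or only the libraries compared. The interaction passed for 17 genes with no filter. None of the 9 genes passed in any of these settings. Hadha in the first experiment passed with no scaling (adjusted p = 0.0482), no filter (0.03), DESeq2 (0.0469) and the replicate block (0.0054). Same-numbered libraries of 2 groups were also compared by their deviations from the mean log2 CPM of their own group, correlated over all genes tested. These correlations of deviations were 0.027 to 0.087 in the Lin9 comparison of the first experiment. In the second they were 0.393, 0.089 and 0.17 with wild-type Sav1 and -0.023 to -0.016 with Sav1 deleted. For Sav1 they were 0.019 to 0.143 with Lin9 and -0.051 to 0.073 without it. No comparison had all 3 above 0.1, so the numbers were not read as pairs, and with the replicate block 8, 8 and 8 of the 9 genes passed in the Lin9 comparisons, and 5001, 4367 and 4487 genes in all against 4131, 4103 and 4132 without it.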

Other observations

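Beyond fat, the genes that burn acetyl-CoA were also lower in Lin9 knockouts, libraries scaled to all genes and tested with edgeR. Of the 18 listed genes of the citric acid cycle 17, 18 and 18 were lower past the threshold in the 3 Lin9 comparisons, against 9.78%, 10.5% and 11.6% of all genes tested, with a median log2 fold change of -0.61, -0.66 and -0.68. Idh3a, a subunit of isocitrate dehydrogenase, changed by -0.92 ± 0.11 in the first experiment and -1.03 ± 0.10 in the second with wild-type Sav1, the comparison given for the genes that follow too (adjusted p = 3.99e-05 and 7.87e-09). Sdhb, the iron-sulfur subunit of succinate dehydrogenase, changed by -0.82 ± 0.12 in the first experiment and -0.81 ± 0.10 in the second (adjusted p = 0.000159 and 9.56e-07). Of 4 genes of ketone body use 3 were lower in each comparison, among them the monocarboxylate transporter gene Slc16a1, by -0.50 ± 0.11 in the first experiment and -0.47 ± 0.10 in the second (adjusted p = 0.00432 and 0.000711), and the thiolase gene Acat1, by -0.43 ± 0.12 in the first experiment and -0.46 ± 0.10 in the second (adjusted p = 0.0168 and 0.00071).

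Of 19 genes of glucose transport and glycolysis 4, 3 and 7 were lower and 0, 3 and 2 higher, against those shares and 11.1%, 12.7% and 11.8% of all genes higher, with a median log2 fold change of -0.04, 0.02 and -0.21. Ldhb, the lactate dehydrogenase subunit typical of heart, changed by -0.70 ± 0.11 in the first experiment and -0.61 ± 0.09 in the second (adjusted p = 0.000317 and 1.67e-05), and Pgam2, the muscle phosphoglycerate mutase, by -0.57 ± 0.12 in the first experiment and -0.56 ± 0.10 in the second (adjusted p = 0.00242 and 0.000145).

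The CPM of Hadha divided by that of Hadhb, whose products form 1 enzyme, was 2.69, 3.33 and 1.98 in controls and 2.87, 3.64 and 2.37 in Lin9 knockouts of the first experiment, and it lay between 3.07 and 3.97 in the 12 libraries of the second. In the first experiment the ratio varied more within a group than between the 2 groups. The replicates had the same order in both groups, and each knockout value was above that of the control with the same number. Libraries of the same number were not read as pairs, and this order was not tested.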
